A study of Gallus gallus with 4 samples.

Results

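GAPDH and ENO1, the genes of 2 glycolytic enzymes, were followed through every exon part that carries their identifiers in the deposited count table of chick cranial headfolds exposed to alcohol or saline. An exon part is a stretch of exon bounded by the exon edges of the annotated transcripts, so an exon that differs between transcripts is divided into several parts. All parts of both genes were taken, 29 of GAPDH and 37 of ENO1, which makes 66 of the 220717 exon parts and 2 of the 24513 gene identifiers in the table.

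The embryos were Special Black chicks at Hamburger-Hamilton stage 8 to 9, incubated for 27 hr before treatment. The alcohol group received 0.43 mmol of ethanol, given by the study as 52 mM for 90 min with 4.5 hr of recovery, and the control group received isotonic saline. Cranial headfolds were taken 6 hr after exposure began, in pools of 23. Poly-T selected RNA was sequenced in 4 lanes, 2 per group, with a sequencing run for each group, so an effect of the run cannot be told apart from one of the treatment. The lanes are named control 1 and 2 (under saline) and alcohol 1 and 2. Whether lanes of the same group came from different pools is not given in the labels, and the markers of the tissue could not be checked, since no name was paired with their identifiers.

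Glycolysis breaks glucose down to pyruvate in the cytosol and yields ATP without oxygen. GAPDH encodes glyceraldehyde phosphate dehydrogenase, which oxidises a triose phosphate and passes the electrons to NAD. ENO1 encodes alpha enolase, which acts further down the pathway and makes phosphoenolpyruvate. Early embryonic tissue relies strongly on glycolysis, and GAPDH is widely used as a reference gene for measuring other transcripts.

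The lanes held between 15388474 and 20951322 counts. Mitochondrial transcripts took 44.2% of the counts in both lanes under saline and 33.3% and 32.9% under alcohol, and this difference moves every value given in CPM, counts per 1000000 counts of the lane. The control lanes differed by little more than sampling noise (chi-square per degree of freedom 1.04 over 16862 genes) and were summed to 1 library, whereas the alcohol lanes differed (5.68 over 16910 genes) and were kept as 2. The tests therefore compared 1 control library with 2 alcohol libraries, and their spread came from the alcohol lanes alone. P-values measure this spread, which may be technical. Whether it holds any difference between pools is not known, so p-values are not read as measuring variation between embryos or pools. Values were scaled by TMM (trimmed mean of M values), tests were edgeR's quasi-likelihood tests, and a Benjamini-Hochberg adjusted p below 0.1 over all features tested counted as passing. TMM factors were set separately for genes and for exon parts (0.849 and 0.758 for the controls). The abundance change of a part is therefore not on the same scale as that of its gene.

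GAPDH (ENSGALG00000014442+ENSGALG00000028638) lies on chromosome 1, plus strand, at chr1:76949287-76956805 of Gallus gallus 5.0, and ENO1 (ENSGALG00000002377) on chromosome 21, minus strand, at chr21:3211465-3223868. The GAPDH identifier joins 2 overlapping gene models and fragments were counted without strand, so counts of genes that overlap there cannot be separated. The paper names parts 12 and 26 of this identifier as a predicted miRNA in one place and as GAPDH in another. The GAPDH parts form 15 separate stretches with 1844 bases in all, and the ENO1 parts form 14 stretches with 1861 bases. Many parts are short, with 17 of the 29 GAPDH parts and 30 of the 37 ENO1 parts under the read length of 75 bases. What coding or untranslated sequence each part holds was not analysed here.

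Both genes were among the most abundant transcripts of the headfold, and both were lower after alcohol relative to the other genes. GAPDH fell by 0.57 on the log2 scale (SE 0.12, edgeR adjusted p = 0.00138) and ENO1 fell by 0.45 (SE 0.12, edgeR adjusted p = 0.00995), with 1 control and 2 alcohol libraries. Of all 18093 genes tested, 27.2% passed the same test and 11.6% passed it in the lower direction, and the log2 change lay below that of GAPDH in 11.3% of genes and below that of ENO1 in 16.6%.

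GAPDH had 44699 and 44531 counts under saline and 26928 and 32617 under alcohol. In CPM these were 2133 and 2135 against 1750 and 1920. Both alcohol lanes lay below both control lanes, and the alcohol lanes differed from each other by far more than the control lanes did. ENO1 had 33548 and 32955 counts under saline and 23583 and 24493 under alcohol, or 1601 and 1580 CPM against 1533 and 1441. Here too the groups did not overlap, but on this scale the gap between the groups was no wider than that between the alcohol lanes. The counting interval of GAPDH in control lane 1 was 2114 to 2153 CPM (95% Wilson interval, as are all intervals unless named otherwise), and these intervals cover counting error only.

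Among nuclear genes, GAPDH ranked 8th by counts in both lanes under saline and 10th and 9th under alcohol. ENO1 ranked 10th and 11th by counts under saline and 14th and 16th under alcohol. By counts per kilobase ENO1 ranked 14th in both lanes under saline and 12th and 14th under alcohol, so that rank did not fall. GAPDH had the same ranks by both measures. Scaled to the counts outside the mitochondrial genome alone, in CPM of those counts, GAPDH stood at 3827 and 3824 under saline and at 2623 and 2862 under alcohol. ENO1 stood at 2872 and 2830 against 2298 and 2149. With the mitochondrial counts out of the denominator, the gap between the groups was clearly wider than the gap between lanes of a group for both genes.

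**Figure D1:**
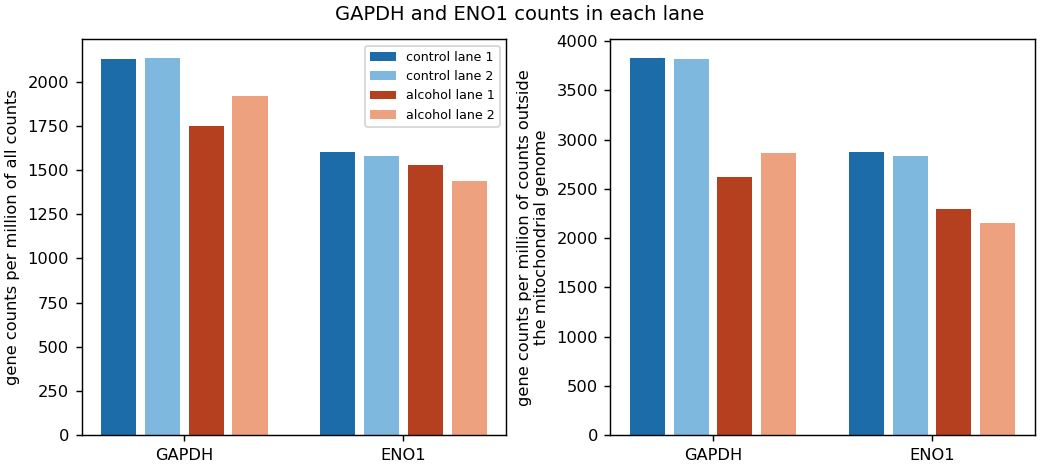
Bars give GAPDH and ENO1 gene counts in each of the 4 lanes, in CPM of all counts (left) and in CPM of the counts outside the mitochondrial genome (right). Both alcohol lanes are below both control lanes in each panel, with GAPDH at 2133 and 2135 against 1750 and 1920 on the left and 3827 and 3824 against 2623 and 2862 on the right.

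Without TMM, with library size as the only scaling, the change was -0.22 for GAPDH (edgeR adjusted p = 0.119) and -0.10 for ENO1 (edgeR adjusted p = 0.54), so neither passed. That scaling moved the median of all genes to 0.36, and relative to this median GAPDH was at -0.58 and ENO1 at -0.46, against -0.59 and -0.46 with TMM. A change of scaling shifts all genes by nearly the same amount. This agreement was therefore fixed in advance and is no support for the change of either gene. The direction of both gene changes was the same in both scalings. In such bulk tissue, fewer cells that express a gene and less of its RNA per cell cannot be told apart.

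Per length, GAPDH was the higher of the 2 genes in each lane. Its level per kilobase of exon parts was 1.34 and 1.36 times that of ENO1 under saline and 1.15 and 1.34 times under alcohol. Alcohol lane 2 and control lane 1 differed in this ratio by less than the control lanes did, and alcohol lane 1 was lower than the other 3 lanes. Against ACTB, the cytoplasmic beta-actin gene and another common reference, GAPDH stood at 0.350 and 0.349 per kilobase under saline and at 0.322 and 0.349 under alcohol. ACTB itself fell by 0.51 (SE 0.11, edgeR adjusted p = 0.00188), so all 3 of these abundant genes were lower after alcohol, and a ratio between them does not show that any of them was unchanged.

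Of the 21 genes for glucose uptake and glycolysis that were listed, 4 could be paired with an identifier. These names came from the study's own lists, which it drew from exons that passed its test for alcohol in these same data. At the threshold 3 of these 4, namely GAPDH, ENO1 and PKM, were lower and none was higher. Of all genes, 11.6% passed in the lower direction. PKM, the pyruvate kinase gene of the last step, had 1567 and 1612 CPM under saline and 1468 and 1796 under alcohol, and its change was -0.32 (SE 0.13, edgeR adjusted p = 0.085). The alcohol lanes of PKM lay on either side of the control lanes, and the gene did not pass without control lane 2 (edgeR adjusted p = 0.129), with mitochondrial counts removed first (edgeR adjusted p = 0.134), with at least 10 counts in every library (edgeR adjusted p = 0.107) or with DESeq2 (adjusted p = 0.204). With library size alone its change was 0.04, with the sign turned. SLC2A1, which encodes a glucose transporter of the cell surface, did not pass (-0.22, SE 0.13, edgeR adjusted p = 0.259), and its sign turned in the same way, to 0.13. The median over the 4 genes was -0.38, beside 0.01 over all genes tested. The 4 were named through that choice of exons, and GAPDH and ENO1 are among them. Neither the share nor the median is therefore read as a result about glycolysis.

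By the distance between their log2 profiles over the 4 lanes, each centred on its mean, the genes most like GAPDH among 55 others with a name were CDK10 (distance 0.07), ACTB (0.10) and ACTG1 (0.11). Those most like ENO1 were RAN (0.04), TMSB4X (0.06) and EEF1A1 (0.08). These distances describe 4 lanes only, and the named genes are those of the study's own tables.

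Most counts of both genes sat in 1 part at the 3′ end. GAPDH part 26 (291 bases) held 85.6% of its gene in both lanes under saline and 82.9% and 83.2% under alcohol. The intervals of the control lanes reach from 85.3% to 85.9% and those of the alcohol lanes from 82.4% to 83.6%, so the groups did not overlap. ENO1 part 3 (453 bases), which is at the 3′ end because the gene is on the minus strand, held 86.7% and 86.9% under saline and 83.0% and 82.3% under alcohol. In both genes the share of the 3′ part was thus smaller after alcohol.

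The remaining parts of GAPDH summed to 307 CPM in both lanes under saline and to 300.0 and 323 under alcohol, a range in which the groups overlapped. The 3′ part by contrast stood at 1827 CPM in both lanes under saline and at 1450 and 1596 under alcohol. For ENO1 the remaining parts summed to 213 and 208 CPM under saline and to 260 and 256 under alcohol, and were higher in both alcohol lanes, while the 3′ part went from 1388 and 1372 to 1273 and 1186. Both patterns hold for CPM of all counts only. In that scale mitochondrial counts took 44.2% in both lanes under saline and 33.3% and 32.9% under alcohol. With TMM scaling the sum of the remaining parts was not higher after alcohol in either gene, at -0.33 in GAPDH and -0.06 in ENO1.

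With the 3′ part left out of the gene sum, a comparison added after the data had been seen, GAPDH changed by -0.33 (edgeR adjusted p = 0.0794) and ENO1 by -0.06 (edgeR adjusted p = 0.799). Without its 3′ part ENO1 no longer passed, and GAPDH passed with a smaller change. The GAPDH sum still held part 22, which went from 113 and 117 CPM under saline to 51.1 and 57.0 under alcohol. Part 20 went from 79.4 and 80.6 to 89.5 and 107 CPM, and part 25 from 56.5 and 52.6 to 62.6 and 57.4. With TMM scaling parts 20 and 25 changed by -0.30 and -0.46 in abundance, and neither passed. GAPDH without both parts 22 and 26 was not tested.

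Beyond the 3′ part, the counts were spread very unevenly. A part was called dense when its counts per base were at least 10% of those of the densest part of its gene. GAPDH had 4 dense parts (20, 22, 25 and 26) and 25 sparse ones, and ENO1 had 4 dense parts (3, 12, 16 and 18) and 33 sparse ones. In GAPDH 7 parts had no count in any lane, 7 had 1 to 9 counts over all lanes and 15 reached the minimum of 10 for the tests. In ENO1 these numbers were 11, 11 and 15. The parts below the minimum together held 28 counts in each gene. They were up to 50 bases long in ENO1, and in GAPDH 11 of the 14 were under 75 bases, the longest being part 3 with 141 bases and 9 counts.

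**Figure D2:**
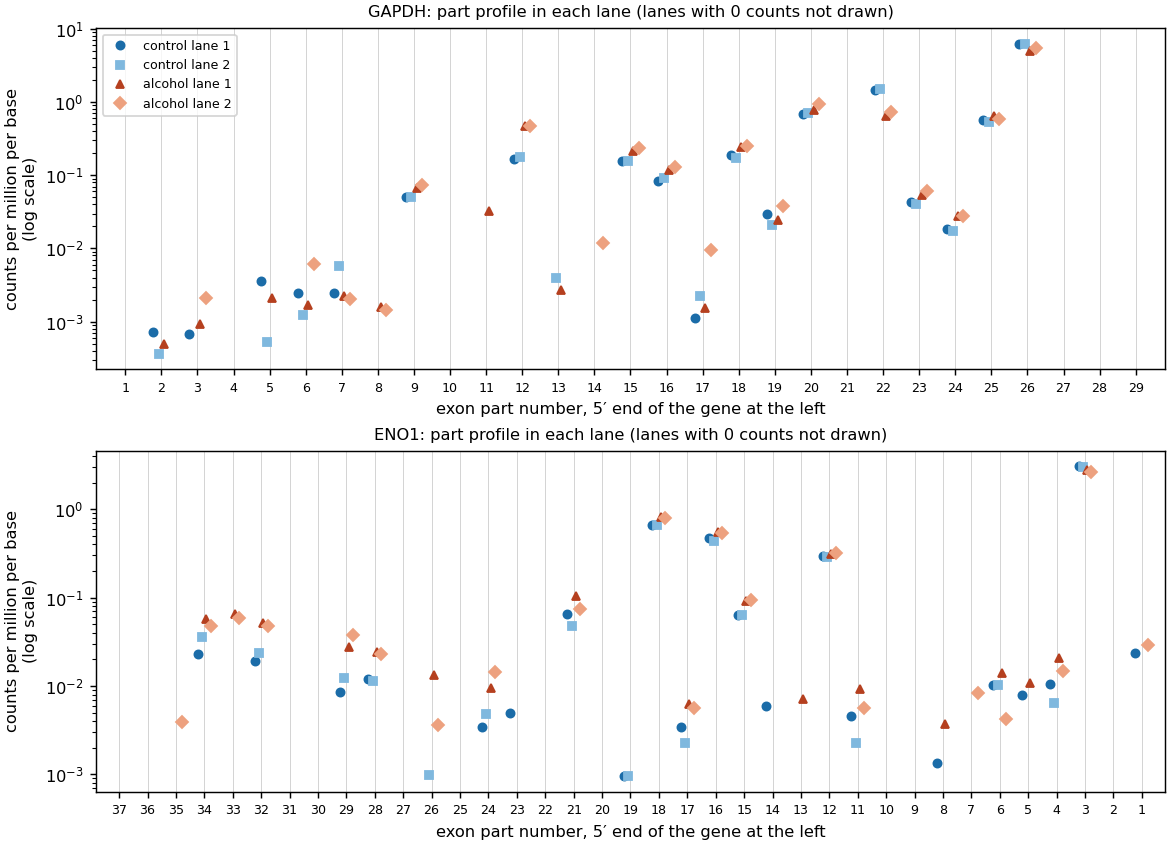
Points give the CPM per base (log scale) of each exon part of GAPDH (top) and ENO1 (bottom) in each lane, with the 5′ end of the gene at the left and lanes with 0 counts not drawn. The 3′ parts, GAPDH 26 and ENO1 3, stand far above all others, and among the GAPDH parts with over 100 counts in every lane the groups lie farthest apart in parts 12 and 22.

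GAPDH part 12 rose after alcohol, in usage and in abundance. It is 83 bases long (chr1:76954328-76954410) and is the 5′ portion of a stretch whose other portion is part 13. It had 292 and 309 counts under saline and 598 and 656 under alcohol, although the alcohol lanes held fewer counts in all. In CPM these were 13.9 and 14.8 against 38.9 and 38.6. As a share of the gene it went from 0.653% (0.583% to 0.732%) and 0.694% (0.621% to 0.775%) under saline to 2.22% (2.05% to 2.40%) and 2.01% (1.86% to 2.17%) under alcohol. The intervals of the lanes of each group overlap, and the groups are far apart.

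The usage of part 12, meaning its change relative to that of the whole gene, rose by 1.65 on the log2 scale (SE 0.21, edgeR adjusted p = 1.99e-07), or 3.14-fold. Among the 94274 parts tested it had the 3rd smallest p. The study's own exon test had already called this part in these same lanes, and it was chosen with that known. The p and the rank of part 12 are therefore no independent support. Its abundance, the change of the part itself, rose by 0.83 (SE 0.22, edgeR adjusted p = 0.0038), or 1.78-fold. With library size alone the abundance change was 1.43 (edgeR adjusted p = 1.14e-10), and the median of all parts moved from 0.04 to 0.63. Relative to the median part 12 was at 0.80 in both scalings. That agreement follows from the shift of all parts together and is no separate support.

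The immediate neighbours of part 12 carried next to no fragments. Parts 10 (19 bases) and 11 (2 bases) lie at the end of the stretch before it and had 0 counts in all lanes except for 1 count of part 11 in alcohol lane 1. Part 13 (24 bases), which adjoins it, had 0 and 2 counts under saline and 1 and 0 under alcohol. Part 14 (5 bases), which starts the next stretch, had 1 count, in alcohol lane 2. All 4 are shorter than a read, none reached 10 counts, and none was tested.

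The nearest parts with counts were part 9 on the 5′ side and part 15 on the 3′ side. Part 9 (81 bases) had 86 and 85 counts under saline and 84 and 101 under alcohol, and its usage change was 0.70 (SE 0.25, edgeR adjusted p = 0.113). Part 15 (86 bases) had 280 and 280 against 284 and 345 counts. In CPM part 15 went from 13.4 in both lanes under saline to 18.5 and 20.3 under alcohol, a smaller step than that of part 12.

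Set against part 15 within each lane, which needs no scaling between lanes, part 12 had 1.04 (exact interval 0.882 to 1.23) and 1.1 (0.936 to 1.30) counts per count of part 15 under saline. In the alcohol lanes it had 2.11 (1.83 to 2.43) and 1.90 (1.67 to 2.17). The ratio of part 15 to part 18, which lies farther toward the 3′ end, was 0.862 and 0.956 under saline and 0.922 and 0.986 under alcohol. So part 12 moved against part 15 by about the same amount in both alcohol lanes, while parts 15 and 18 kept overlapping ratios in the 2 groups.

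GAPDH part 22 moved the other way. It is 78 bases long (chr1:76955528-76955605) and had 2372 and 2442 counts under saline and 787 and 968 under alcohol. In CPM these were 113 and 117 against 51.1 and 57.0. Its share of the gene went from 5.31% (5.10% to 5.52%) and 5.48% (5.28% to 5.70%) to 2.92% (2.73% to 3.13%) and 2.97% (2.79% to 3.16%). It was the part with the second most counts of the gene under saline, and no longer so under alcohol, where parts 20 and 25 had more.

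The usage of part 22 fell by 0.87 (SE 0.18, edgeR adjusted p = 0.00238) and its abundance fell by 1.69 (SE 0.20, edgeR adjusted p = 1.07e-13), which was the 21st smallest p of all parts tested for abundance. Against part 20, the dense part before it, part 22 had 1.43 (exact interval 1.34 to 1.52) and 1.45 (1.36 to 1.55) counts per count under saline and 0.571 (0.523 to 0.624) and 0.530 (0.490 to 0.573) under alcohol. Part 20 (115 bases) itself had 1663 and 1681 against 1378 and 1826 counts and did not pass either test (usage 0.52, edgeR adjusted p = 0.12, and abundance -0.30, edgeR adjusted p = 0.395). The counts of part 12 per count of part 22 went from 0.123 and 0.127 under saline to 0.760 and 0.678 under alcohol.

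**Figure D3:**
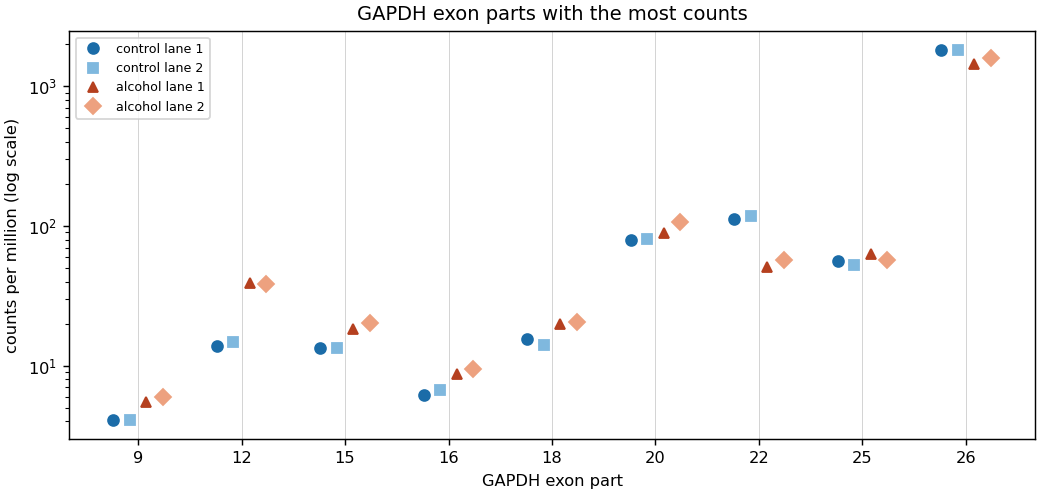
Points give the CPM (log scale) of the 9 GAPDH exon parts with the most counts, by lane. Part 12 is at 13.9 and 14.8 under saline and 38.9 and 38.6 under alcohol, and part 22 goes the other way, from 113 and 117 to 51.1 and 57.0.

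Over the 15 tested GAPDH parts, usage passed for 5, beside 4.87% of all parts tested. Of these 5, parts 12, 15, 16 and 18 were higher, beside 4.36% of all parts in that direction, and part 22 was lower, beside 0.511%. Part 15 changed by 0.75 (edgeR adjusted p = 0.0335), part 18 by 0.68 (edgeR adjusted p = 0.0582) and part 16 by 0.72 (edgeR adjusted p = 0.0711). These 3 parts had 129 to 325 counts under saline and 134 to 350 under alcohol, and their abundance changes lay between -0.14 and -0.06 with none passing. With TMM, part 12 was the one of the 4 parts with higher usage that also passed as higher in abundance. With library size alone, parts 15 (0.54, edgeR adjusted p = 0.036), 16 (0.51, edgeR adjusted p = 0.0861) and 18 (0.46, edgeR adjusted p = 0.0708) passed as higher too. Part 16 did not pass without control lane 1 (edgeR adjusted p = 0.156), nor part 18 without control lane 2 (edgeR adjusted p = 0.138).

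Abundance passed for 3 of the 15 GAPDH parts, beside 14.2% of all parts, with part 12 higher, beside 5.69% of all parts, and parts 22 and 26 lower, beside 8.48%. Part 26 fell by 0.86 (SE 0.22, edgeR adjusted p = 0.00406), on 38274 and 38123 counts under saline and 22311 and 27125 under alcohol. With library size alone, which scales parts and genes alike, part 26 was at -0.26 and the whole gene at -0.22. The usage change of part 26 was -0.04, as a part that makes up most of a gene hardly differs from the gene. The median usage change over the 15 parts was 0.68, beside 0.21 over all parts tested, and the median abundance change was -0.14, beside 0.04. Across the 5048 genes in which 1 part held over 75% of the counts, that part had a median usage change of -0.03 and the 22303 other tested parts one of 0.50, so a higher usage of the parts beside a dominant one was general in these libraries. A part that is higher and a part that is lower in usage stood together in 178 of the 13545 genes tested, or 1.31%, and GAPDH was one of these. Any passing part was found in 2589 of the genes tested. The study had already listed GAPDH exons that changed in both directions in these same lanes. The place of GAPDH among the 178 is therefore no independent result.

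Parts of 75 to under 100 bases, the length of parts 12 and 22, passed as higher in 4.97% and as lower in 0.517% of the 10635 tested, with a median usage change of 0.41. Those under 75 bases passed as higher in 2.56% and as lower in 1.46%. With the parts under 75 bases left out of the fit, which was added after the data had been seen, part 12 changed by 1.65, and with part 22 left out it changed by 1.61 (edgeR adjusted p = 5.40e-07).

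ENO1 had no part that passed as lower in usage. The usage test passed for 5 of its 15 tested parts, all higher, beside 4.87% of all parts tested and 4.36% in that direction. These were parts 21, 24, 26, 29 and 32, which lie on the 5′ side of every dense part of the gene. Part 29 (78 bases) had 14 and 20 counts under saline and 33 and 50 under alcohol, and its usage rose by 1.74 (SE 0.34, edgeR adjusted p = 0.0012). Part 32 (94 bases) had 38 and 46 against 74 and 76 counts, and its usage rose by 1.30 (SE 0.28, edgeR adjusted p = 0.00326). In both parts the alcohol lanes had more counts than either control lane at a lower total.

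The other 3 rested on fewer counts or a smaller change. Part 21 (71 bases) had 97 and 71 against 114 and 90 counts, which overlapped, and a usage change of 0.75 (edgeR adjusted p = 0.0842). Its shares of the gene, 0.289% and 0.215% against 0.483% and 0.367%, did not overlap. The counting intervals of control lane 1 (0.237% to 0.353%) and alcohol lane 2 (0.299% to 0.451%) did. Part 24 (69 bases) had 5 and 7 against 10 and 17 counts and changed by 1.62 (SE 0.51, edgeR adjusted p = 0.0658). Part 26 (49 bases) had 0 and 1 count under saline and 10 and 3 under alcohol, which is a ratio of 16.8 in CPM between the summed lanes with an exact counting interval from 2.52 to 713. The fitted usage change of this part, 3.96 (SE 1.02, edgeR adjusted p = 0.0186), depends on the prior count of the fit. Without control lane 1, parts 24 and 26 no longer passed in usage (edgeR adjusted p = 0.256 and 0.157), and without control lane 2, parts 21 and 24 did not (edgeR adjusted p = 0.327 and 0.13).

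The well covered parts of ENO1 did not pass the usage test. Part 18 (131 bases), the second most abundant, had 1798 and 1821 counts under saline and 1632 and 1785 under alcohol, with a usage change of 0.38 (edgeR adjusted p = 0.30). Its share of the gene was 5.36% (5.12% to 5.61%) and 5.53% (5.28% to 5.78%) under saline and 6.92% (6.60% to 7.25%) and 7.29% (6.97% to 7.62%) under alcohol. Part 12 of ENO1 (193 bases) had 1205 and 1149 against 936 and 1048 counts and a usage change of 0.22 (edgeR adjusted p = 0.653). For part 18 the shares of the groups did not overlap, yet the change did not pass in the main fit. With every lane as its own library it passed (0.38, SE 0.11, edgeR adjusted p = 0.0164), against an SE of 0.19 in the main fit. That fit counts the control lanes as replicates, although they differed by little more than sampling noise. Its p is therefore no added support. The cause of the difference between the fits was not tested.

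Abundance passed for 3 ENO1 parts, with parts 26 and 29 higher, beside 5.69% of all parts, and part 3 lower, beside 8.48%. This was 3 of 15, beside 14.2% of all parts in either direction, and is not read as a result about the gene. Part 3 had 29086 and 28626 counts under saline and 19585 and 20149 under alcohol, and it fell by 0.76 (SE 0.22, edgeR adjusted p = 0.0122). With library size alone neither 3′ part passed (ENO1 part 3 -0.16, edgeR adjusted p = 0.378, and GAPDH part 26 -0.26, edgeR adjusted p = 0.133). Part 29 rose by 1.05 (SE 0.34, edgeR adjusted p = 0.0269), and without control lane 1 it no longer passed (0.84, edgeR adjusted p = 0.178), nor did part 26 (2.37, edgeR adjusted p = 0.241). Over the 15 parts the median usage change was 0.91 and the median abundance change 0.22.

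**Figure D4:**
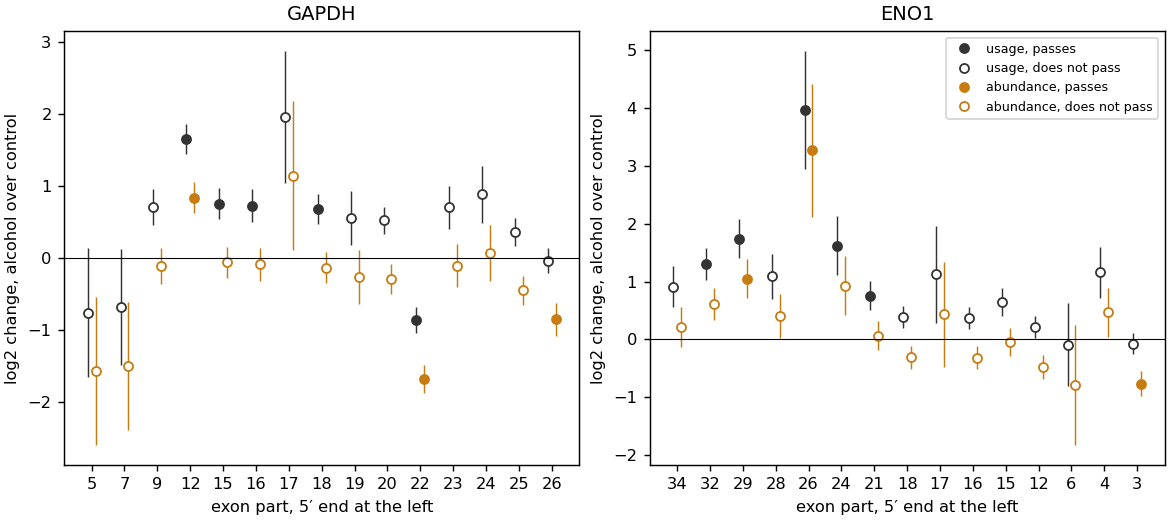
Points give the log2 change of usage (black) and abundance (orange) of each tested exon part, alcohol over control, with bars of 1 SE, and filled points passed at an adjusted p below 0.1. GAPDH part 12 is higher in both (1.65 and 0.83), part 22 is lower in both (-0.87 and -1.69), and in ENO1 the 5 parts that passed in usage were all higher.

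The usage change depended on the place in the gene across the whole table. Its median was -0.11 for parts under 300 bases from the 3′ end, measured along the exon parts, 0.07 from 300 to under 1000 bases, 0.35 from 1000 to under 2000 bases and 0.48 from 2000 bases on. Within ENO1 the usage change was larger farther from the 3′ end (Spearman's rho 0.64 across its 15 tested parts). Within GAPDH there was little such order across all 15 tested parts (0.08). These include parts 5 and 7, the tested parts nearest the 5′ end, with only 11 and 14 counts over all lanes. Their usage changes were -0.76 (SE 0.89) and -0.69 (SE 0.80). The order within GAPDH without such low-count parts was not computed. Parts of 1 gene share its libraries and are not replicates, so these are descriptions.

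Taking this trend over distance off in the fit reduced it but did not fully remove it. The medians over the same ranges became 0.034, 0.036, 0.078 and 0.16. In this fit GAPDH parts 12 and 22 still passed, at 1.23 (SE 0.21, edgeR adjusted p = 0.000192) and -1.05 (SE 0.18, edgeR adjusted p = 0.000303). Parts 15, 16 and 18 no longer passed (0.38, 0.38 and 0.39). Of the 5 ENO1 parts only part 29 passed, at 1.23 (SE 0.34, edgeR adjusted p = 0.0773). The model of DEXSeq, which compares a part with the other parts of its gene, was fitted with DESeq2 and gave the same division for GAPDH, with parts 12 and 22 passing (part 12 at 1.67, DESeq2 adjusted p = 2.97e-05) and parts 15, 16 and 18 not.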

How the data were processed

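The values are counts of fragments per exon part in 4 lanes, which the authors made, without normalization, by trimming, alignment with Bowtie2 to Gallus gallus 5.0 and featureCounts 1.5.2, with both mates mapped and without strand. Bowtie2 does not split a read over a junction, and fragments overlapping several parts were not assigned. This lowers counts of parts shorter than a fragment, and not only of those shorter than the 75-base reads. The size-selected library length was 300 bases, against 83 bases for GAPDH part 12 and 78 bases for part 22. A further deposited table lists selected exon parts with signal values, which the authors obtained as size-factor normalized counts and base means. They were used only for a check, and its usage coefficients and fold changes were not used. The GAPDH and ENO1 parts and all lists were chosen with earlier results of these data known.

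Lanes of a group were summed when chi-square per degree of freedom over genes was under 1.1. Parts and genes with at least 10 counts over the libraries were tested in R 4.3.3 with the quasi-likelihood methods of edgeR 4.0.16, and with its diffSpliceDGE for usage in genes with at least 2 such parts, under TMM scaling and a false discovery rate of 0.1. Gene counts are sums over parts. The SE of an edgeR change was computed back from its test, as the absolute log2 change divided by the square root of the F statistic. For the distance trend (lowess, span 0.2, 2 passes) the gene-level offset of diffSpliceDGE was computed per gene from the offsets of its parts, since the function takes 1 set of offsets for all genes. DESeq2 1.42.0 served as an alternative, with the package data.table (version 1.17.8). Other values came from Python 3.11.15, pandas 2.3.3, numpy 2.4.6, scipy 1.17.1 and matplotlib 3.10.9. The tests were also run on simulated counts, drawn with the same dispersion for every library and without a distance trend or a run effect. No result here rests on that simulation.

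Parts described singly were GAPDH part 12 with 2 parts on each side, the 3 parts of each gene with most counts, and up to 5 per gene with the smallest usage p among those passing. GAPDH parts 9 and 25 and ENO1 part 16 were added after their values were seen. Gene names came from the study's tables. A gene table of a later assembly shared no identifiers and was not used, and no genome sequence was used here.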

Additional observations from a re-analysis of the deposited data

How the results depend on the processing

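The p-values rest on 2 alcohol lanes and 1 summed control library. No paired analysis was possible because the lane numbers in the labels do not mark shared pools and the controls entered as 1 library. Part 12 of GAPDH kept its direction and passed in usage and abundance under every alternative that gave a test. With library size alone, the gene changes were -0.22 for GAPDH and -0.10 for ENO1, and 5 GAPDH and 9 ENO1 parts passed in abundance. PKM (0.038), SLC2A1 (0.13) and the abundance of GAPDH parts 15 (0.54), 16 (0.51), 18 (0.46) and 20 (0.30) and ENO1 parts 12 (0.12) and 18 (0.29) changed sign. In CPM of the counts outside the mitochondrial genome, the ratio of mean levels was -0.48 for GAPDH and -0.36 for ENO1 in log2, against -0.22 and -0.10 in CPM of all counts. Without the 3′ part ENO1 changed by -0.061, the usage calls were 2 in GAPDH and 3 in ENO1, and the usage changes of ENO1 parts 12 (-0.17) and 18 (-0.0072) turned. Usage calls in GAPDH and ENO1, 5 and 5, became 2 and 2 with DESeq2 and 3 and 3 from 1 count on. With every lane as its own library, which counts the control lanes as replicates, they were 9 and 11. With the distance trend reduced they were 2 and 1. They were 8 in ENO1 with at least 10 counts in every library and 2 with parts under 75 bases left out. Abundance calls, 3 and 3, became 5 and 7 with every lane as its own library. Leaving out 1 control lane gave 4 usage calls in GAPDH and 3 in ENO1 and 3 abundance calls in GAPDH and 1 to 3 in ENO1. From 10 counts in every library on, GAPDH part 15 was at 0.015 in abundance, and ENO1 part 21 was at -0.056 from 1 count on and between -0.21 and 0.35 without 1 lane. Except where a setting tests fewer parts or libraries by construction, the cause was not tested. No test was made without an alcohol lane, which leaves 1 library per group.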

Other observations

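In the authors' deposited table of selected exons, 10 GAPDH parts and 12 ENO1 parts are listed with a base mean and with normalized counts. The columns of those counts name the group but no lane. The study used only exons with an adjusted p below 0.1 in its own DEXSeq fit. Its list includes GAPDH parts 9, 20, 23, 25 and 26, which did not pass the usage test here. Nor did ENO1 parts 3, 4, 12, 15, 16, 18, 28 and 34, which are also listed. ENO1 part 26 passed here and is not among the listed parts. The cause of these differences was not tested. The base mean matched the mean of the part's own normalized counts within 0.1% for 1 GAPDH part (18) and 1 ENO1 part (3). For the other 9 and 11 parts it matched, within the same tolerance, the mean of another listed part of the same gene. GAPDH part 12, with a mean of 445 over its normalized counts, carries the authors' base mean of 31526, which is that of part 26, and part 26 carries 445. GAPDH part 22, with a mean of 1678, carries 37.3, that of part 23. No value in the report uses these base means, and whether other columns of that table are displaced in the same way was not tested.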
